A study of Mus musculus with 8 samples.

Results

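Protocadherins are calcium-dependent adhesion proteins of the cadherin superfamily, and the array table held 31 probe sets whose platform gene symbol begins with Pcdh, of 22206 probe sets in all. They comprise 20 genes of the clustered beta group (Pcdhb1 to Pcdhb20), 4 non-clustered genes of the delta-1 group (Pcdh1, Pcdh7, Pcdh9 and Pcdh11x), 5 of the delta-2 group (Pcdh8, Pcdh10, Pcdh17, Pcdh18 and Pcdh19), and Pcdh12 and Pcdh20, which belong to neither delta group. Each gene had 1 probe set, and all 31 symbols matched a RefSeq gene by Entrez identifier. No member carried a Pcdha or Pcdhg symbol, so the clustered alpha and gamma genes were not analysed here.

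The study asked how the neonicotinoid insecticide clothianidin, a nicotinic acetylcholine receptor agonist, given at a dose regarded as free of adverse effects, affects gene expression in the brain of male mice aged 12 weeks. Clothianidin at 50 mg/kg/day, or the 1% DMSO vehicle, was given for 2 weeks, and RNA of cerebral cortex and of hippocampus was then hybridised to GeneChip arrays. The 4 groups, vehicle cortex, clothianidin cortex, vehicle hippocampus and clothianidin hippocampus, had 2 arrays each, numbered 1 and 6 in the vehicle arm and 3 and 6 in the clothianidin arm. No strain or genotype is given, since the strain field holds the sex, and whether an array stands for 1 animal or for pooled animals is not given in the sources used here. P-values therefore measure the spread between these arrays, which may be technical. Values are log2 expression, so a difference of 1 is a 2-fold change. Log2 levels of different genes come from different probes, so levels of single genes are not compared with each other. Median levels of gene classes are given below with that limit.

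In the brain the clustered protocadherins are known for giving each neuron its own surface identity. Single clustered genes are switched on from their own promoters in different combinations by CTCF and cohesin, and the encoded proteins recognise identical partners on neighbouring membranes. The non-clustered delta members are instead expressed in patterns that follow brain regions, layers and circuits, and they act in axon growth, synapse formation and synapse removal.

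Over the 29 members that passed the filter on low values (mean log2 level over all arrays above 3.94, which left 14804 probe sets tested), the strongest differences were between the tissues. Pcdh20, Pcdh19, Pcdh8, Pcdh17 and Pcdh1 were higher in hippocampus, Pcdh7, Pcdh11x, Pcdh10 and Pcdh9 were higher in cortex, and of the 19 beta genes tested Pcdhb14, Pcdhb13 and Pcdhb11 passed the test over both treatment arms. No member passed the test for clothianidin exposure in either tissue. Pcdh12, a protocadherin of endothelial cells, lay between 3.17 and 3.95 over the 8 arrays, and Pcdhb1 lay between 2.40 and 3.00; both were under the filter and were not tested.

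Promoter sequences show the regulatory DNA next to the start sites of non-clustered genes with large tissue differences. RefSeq promoter windows on build GRCm38.p6 were at hand for 8 of the 31 members, Pcdh11x not among them. The 250 bases before an annotated start are printed for Pcdh20, Pcdh19 and Pcdh8, the 3 members with the largest differences in favour of hippocampus, and for Pcdh7 and Pcdh10, which were higher in cortex. Capitals mark matches, on either strand, to 4 motifs: TATAAA (the TATA box), TGACG (the core of the cAMP response element), CAGATG (an E-box bound by neuronal bHLH factors) and GGGCGG (the GC box).
Pcdh20, chr14:88471397-88471646, minus strand: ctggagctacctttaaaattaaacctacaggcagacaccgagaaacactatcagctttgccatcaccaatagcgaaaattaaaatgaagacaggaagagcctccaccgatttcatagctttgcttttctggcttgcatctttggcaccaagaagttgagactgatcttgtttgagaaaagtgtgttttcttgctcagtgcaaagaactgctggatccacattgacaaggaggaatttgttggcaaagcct
Pcdh19, chrX:133688994-133689243, minus strand: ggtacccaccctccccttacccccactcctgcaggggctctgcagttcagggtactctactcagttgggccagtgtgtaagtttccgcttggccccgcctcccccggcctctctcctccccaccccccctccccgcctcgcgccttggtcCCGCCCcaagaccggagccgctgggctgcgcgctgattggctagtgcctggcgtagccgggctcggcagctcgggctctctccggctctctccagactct
Pcdh8, chr14:79771313-79771562, minus strand: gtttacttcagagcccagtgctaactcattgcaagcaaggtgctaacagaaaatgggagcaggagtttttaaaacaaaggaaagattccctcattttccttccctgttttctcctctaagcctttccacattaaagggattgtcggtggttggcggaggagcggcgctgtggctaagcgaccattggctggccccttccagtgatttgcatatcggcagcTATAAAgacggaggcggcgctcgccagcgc
Pcdh7, chr5:57717831-57718080, plus strand: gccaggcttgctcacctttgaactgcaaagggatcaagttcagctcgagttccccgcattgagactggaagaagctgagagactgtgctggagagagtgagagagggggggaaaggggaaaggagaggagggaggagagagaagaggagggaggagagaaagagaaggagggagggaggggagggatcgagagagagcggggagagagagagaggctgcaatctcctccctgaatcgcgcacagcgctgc
Pcdh10, chr3:45378148-45378397, plus strand: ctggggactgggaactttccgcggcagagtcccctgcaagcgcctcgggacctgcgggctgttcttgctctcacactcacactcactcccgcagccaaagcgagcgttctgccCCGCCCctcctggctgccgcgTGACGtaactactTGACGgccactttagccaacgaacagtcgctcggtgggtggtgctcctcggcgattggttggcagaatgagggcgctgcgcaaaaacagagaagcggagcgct

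The Pcdh8 window held 1 TATAAA, and 13% of 27025 RefSeq mouse promoters of the same length held that motif. The Pcdh10 window held 2 TGACG and 1 GGGCGG, found in 17.9% and 32.9% of all promoters, and the Pcdh19 window held 1 GGGCGG. The Pcdh20 and Pcdh7 windows held none of the 4 motifs, and CAGATG, found in 14.5% of promoters, was in none of the 8 windows. Base composition also differed among them: GC content was 42.4% for Pcdh20 and 69.2% for Pcdh19 against a median of 52% over all promoters, and the observed over expected CpG ratio was 0.267 for Pcdh20 and 0.883 for Pcdh10 against a median of 0.378. These matches are a description of letters in these windows, not of bound sites.

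The arrays carried the marker genes of their labelled tissue. The mean log2 level of 13 hippocampal neuron markers was 7.42 to 7.59 on the cortex arrays and 10.11 to 10.26 on the hippocampus arrays, and Prox1, a dentate granule cell factor, was 6.44 to 6.87 against 11.34 to 11.96. Arrays of 1 group correlated at r = 0.987 to 0.992 over all probe sets, and no pair was identical. A pair of arrays stood apart in choroid plexus genes: Ttr, the choroid plexus transthyretin, was 19.51 on vehicle hippocampus array 1 and 15.41 on vehicle cortex array 6 against 4.17 to 7.76 on the other 6. The 9 choroid plexus markers on the array averaged 10.84 and 5.89 on those arrays against 3.93 to 4.99 on the others. Several results that rest on vehicle arrays are also given without that pair. The 10 meningeal and fibroblast markers averaged 7.35 and 7.85 on the number 3 clothianidin arrays of cortex and hippocampus. They averaged 6.54 and 6.44 on the number 6 clothianidin arrays, and 7.74 on vehicle hippocampus array 1. Fos was 11.51 on vehicle cortex array 1 and 8.67 on vehicle cortex array 6. The part of these differences in the values of the members was not tested.

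Hippocampus and cortex differed in 12 of the 29 tested members over both treatment arms together (4 arrays against 4, limma with Benjamini-Hochberg adjustment over all probe sets tested, adjusted p under 0.05), 8 higher and 4 lower in hippocampus. Over all 14804 probe sets, 31.3% were called in this comparison, 19.5% higher and 11.9% lower. By class, 9 of 10 non-clustered genes were called (90%), against 3 of 19 beta genes (15.8%). The median absolute log2 difference was 1.91 for the non-clustered genes and 0.30 for the beta genes, against 0.40 over all probe sets. The median standard errors were alike at 0.20, 0.22 and 0.21, but the median log2 levels were 9.29, 6.16 and 7.46. Whether level had a part in the difference between the classes was not tested. In bulk tissue, fewer cells of a type and less RNA per cell cannot be told apart, and this holds for every tissue difference here.

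**Figure D1:**
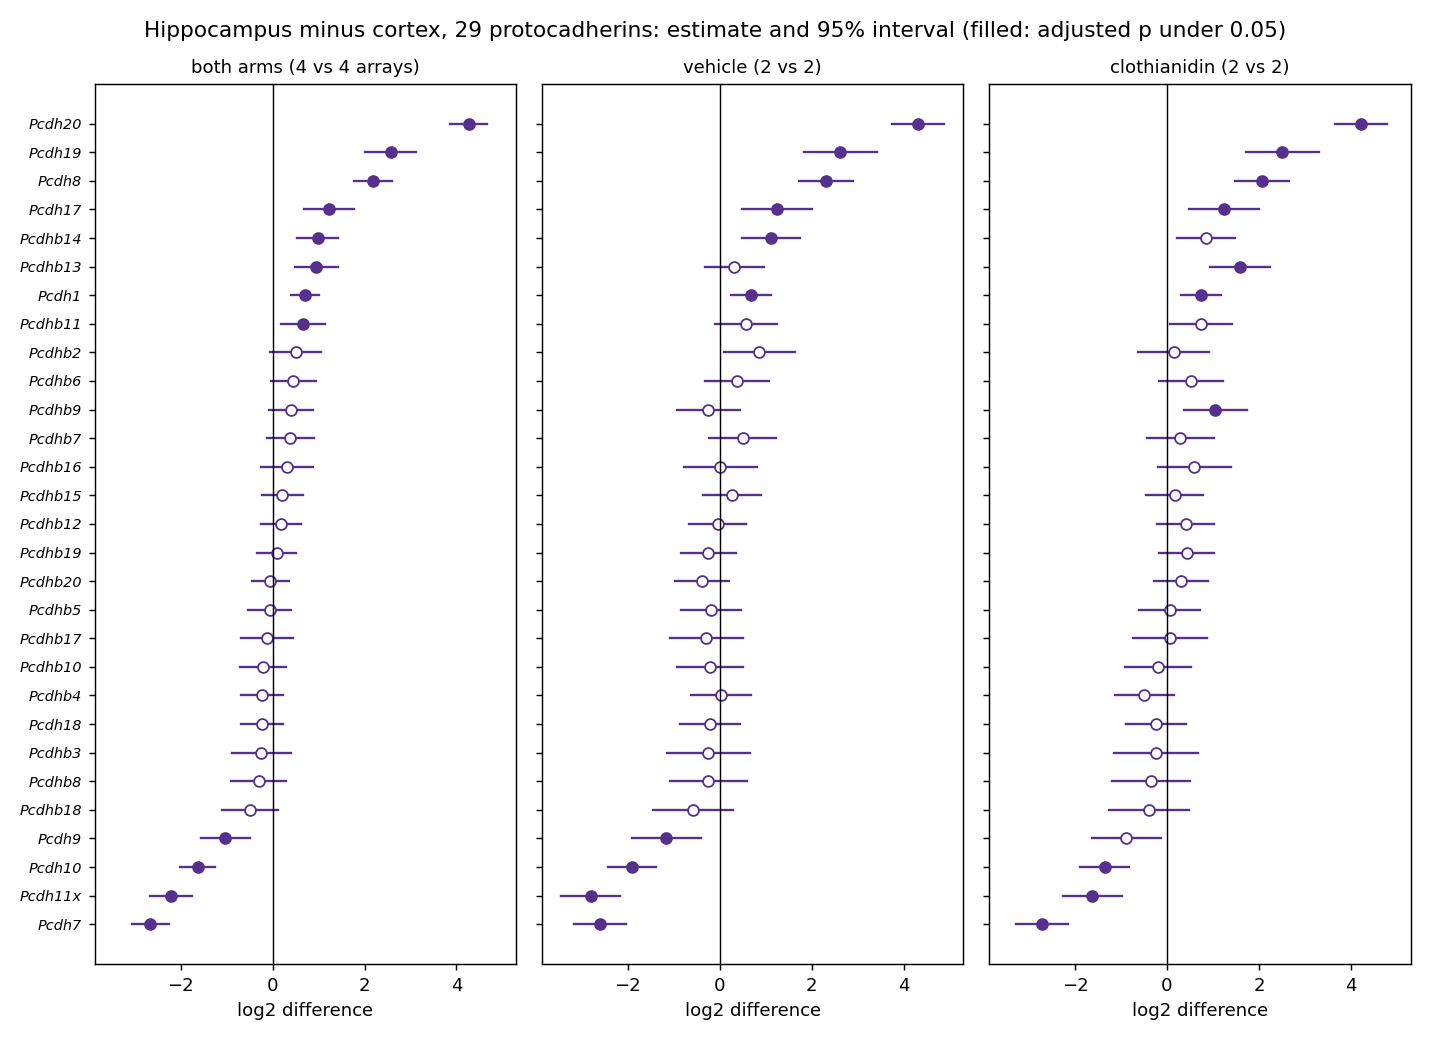
Log2 difference, hippocampus minus cortex, of the 29 tested protocadherins over both arms and within each arm, with 95% intervals from limma; filled points have an adjusted p under 0.05. The called non-clustered genes lie from -2.67 to 4.26 over both arms, and most beta genes lie near 0.

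Among the delta-2 genes, Pcdh19, the X-linked gene mutated in a female-limited epilepsy and a partner of N-cadherin, had log2 levels of 7.49 and 7.81 in vehicle cortex, 7.52 and 8.11 in clothianidin cortex, 10.16 and 10.39 in vehicle hippocampus, and 9.74 and 10.90 in clothianidin hippocampus. All 4 hippocampus arrays lay above all 4 cortex arrays, by a log2 difference of 2.57 (SE 0.26, 5.92-fold, limma adjusted p = 1.65e-05). The gap between the clothianidin hippocampus arrays, 1.16, was the widest of any tested member within a group.

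Pcdh8, or arcadlin, is induced by neuronal activity and drives removal of N-cadherin from the synapse through the kinase Taok2. Its levels were 7.69 and 8.0 in vehicle cortex, 7.82 and 7.44 in clothianidin cortex, 9.99 and 10.32 in vehicle hippocampus, and 9.56 and 9.83 in clothianidin hippocampus. The tissues did not overlap, with hippocampus higher by 2.19 (SE 0.19, 4.56-fold, limma adjusted p = 5.87e-06).

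Pcdh17 recruits the WAVE actin-regulating complex to contacts between axons. It measured 8.61 and 9.16 in vehicle cortex, 8.71 and 9.31 in clothianidin cortex, 9.87 and 10.37 in vehicle hippocampus, and 9.81 and 10.67 in clothianidin hippocampus. The hippocampus arrays were all higher, by 1.23 on the log2 scale (SE 0.25, 2.35-fold, limma adjusted p = 0.00273). The number 6 array was the higher of the pair in each of the 4 groups.

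Pcdh10, which also recruits the WAVE complex and takes part in activity-dependent synapse elimination, ran the other way. Its levels were 11.67 and 11.80 in vehicle cortex, 11.44 and 11.79 in clothianidin cortex, 9.65 and 10.01 in vehicle hippocampus, and 10.30 and 10.22 in clothianidin hippocampus. All cortex arrays lay above all hippocampus arrays, and the hippocampus minus cortex difference was -1.63 (SE 0.17, 3.1-fold lower, limma adjusted p = 2.41e-05).

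Pcdh18, which binds the reelin adaptor Dab1, was the non-clustered gene tested that did not pass. It measured 4.44 and 4.43, 4.16 and 4.13, 4.19 and 4.24, and 4.16 and 3.64 in vehicle cortex, clothianidin cortex, vehicle hippocampus and clothianidin hippocampus, close to the filter limit on every array. Its tissue difference was -0.23 and its arrays overlapped.

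Among the delta-1 genes, whose cytoplasmic tails can bind protein phosphatase 1, Pcdh7 showed the largest difference in favour of cortex. Its levels were 13.14 and 13.13 in vehicle cortex, 13.20 and 13.90 in clothianidin cortex, 10.69 and 10.37 in vehicle hippocampus, and 10.79 and 10.86 in clothianidin hippocampus. The difference was -2.67 (SE 0.18, 95% interval -3.07 to -2.26, 6.34-fold lower in hippocampus, limma adjusted p = 8.74e-07), and the tissues did not overlap.

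Pcdh11x, the X-linked delta-1 gene, measured 8.17 and 8.51 in vehicle cortex, 8.05 and 8.12 in clothianidin cortex, 5.81 and 5.25 in vehicle hippocampus, and 6.62 and 6.31 in clothianidin hippocampus. Every hippocampus array lay below every cortex array (difference -2.21, SE 0.21, 4.64-fold lower, limma adjusted p = 9.95e-06). Within hippocampus the vehicle arrays were both below the clothianidin arrays.

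Pcdh9 measured 10.34 and 10.04 in vehicle cortex, 10.04 and 10.99 in clothianidin cortex, 8.94 and 9.11 in vehicle hippocampus, and 9.24 and 10.02 in clothianidin hippocampus. It was lower in hippocampus by a difference of -1.03 (SE 0.24, 2.04-fold lower, limma adjusted p = 0.00768), and clothianidin hippocampus array 6 came within 0.02 of the lowest cortex arrays. Pcdh1 measured 14.09 and 14.16 in vehicle cortex, 14.05 and 14.15 in clothianidin cortex, 14.78 and 14.82 in vehicle hippocampus, and 14.70 and 14.97 in clothianidin hippocampus. It was higher in hippocampus by 0.71 (SE 0.14, 1.63-fold, limma adjusted p = 0.00262), with no overlap between the tissues.

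Pcdh20 had the largest tissue difference of the members. It measured 4.97 and 5.06 in vehicle cortex, 5.17 and 4.99 in clothianidin cortex, 9.31 and 9.35 in vehicle hippocampus, and 9.20 and 9.38 in clothianidin hippocampus. Its levels on the 4 cortex arrays were within 0.20 of each other and those on the 4 hippocampus arrays within 0.18. The difference was 4.26 (SE 0.18, 95% interval 3.86 to 4.66, 19.2-fold higher in hippocampus, limma adjusted p = 2.45e-08). Its printed promoter window has the lowest GC content and CpG ratio of the 8 windows.

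**Figure D2:**
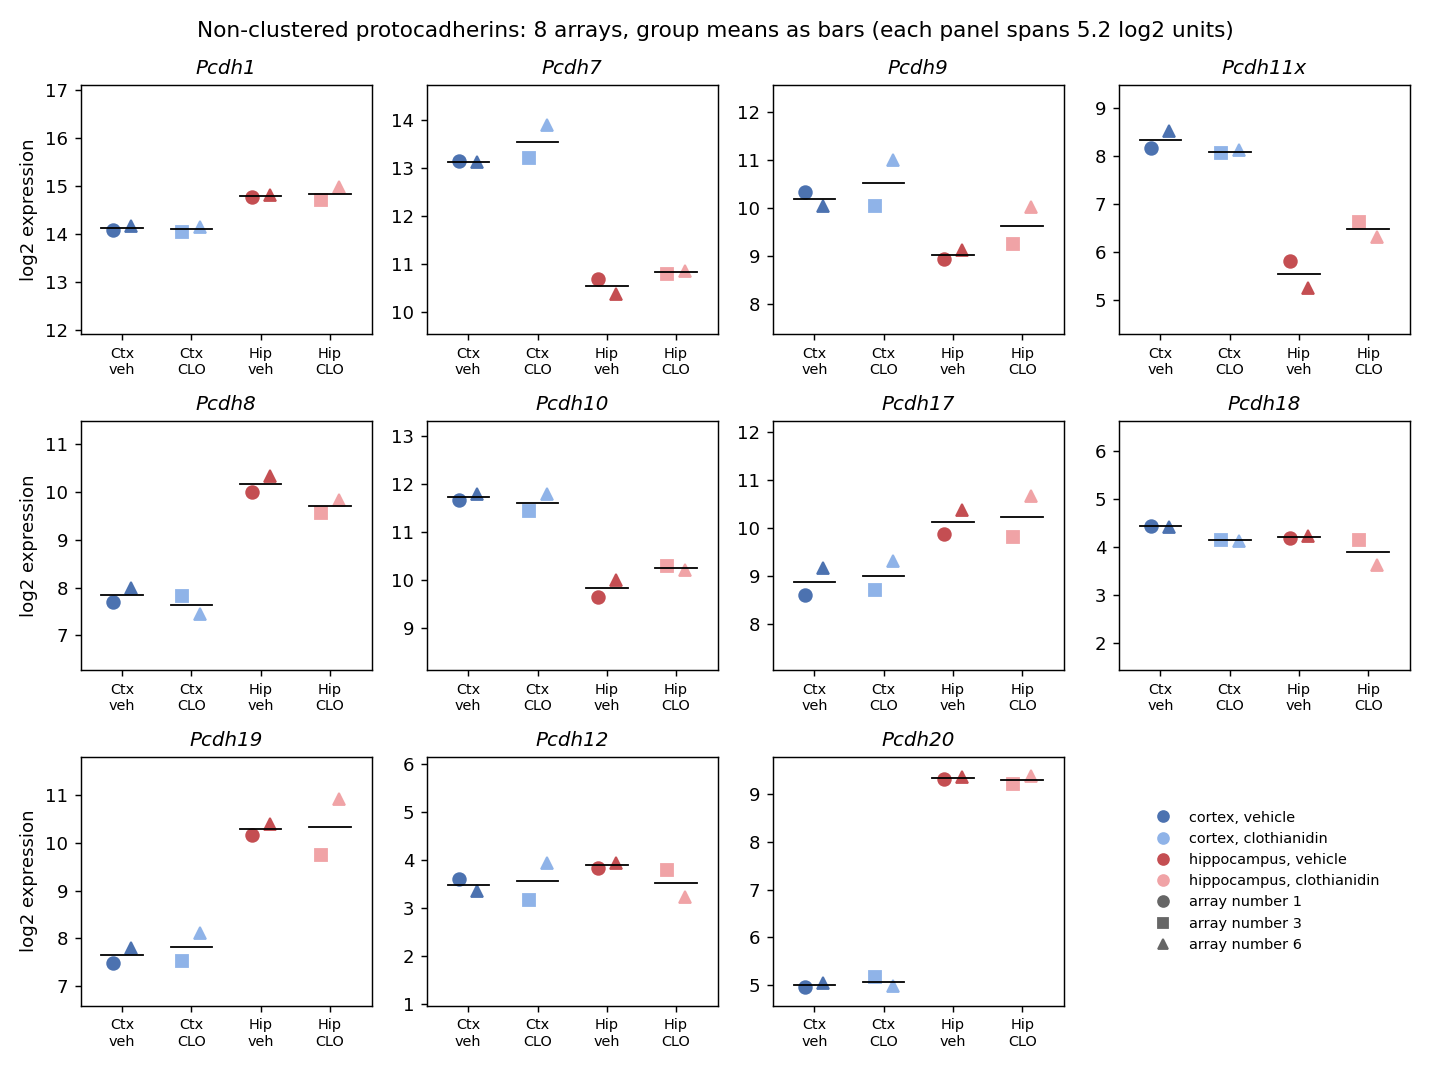
Log2 expression of the 11 non-clustered protocadherins on each of the 8 arrays, by tissue and treatment; bars are group means of 2 arrays, and every panel spans the same log2 range. The tissues separate most in Pcdh20 (4.97 to 5.17 in cortex against 9.20 to 9.38 in hippocampus), and the means of the treatments lie within 0.94 of each other in every panel and tissue.

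The beta genes are single-exon genes whose proteins lack the shared cytoplasmic end of the alpha and gamma groups. In the RefSeq annotation they lay next to each other in the order of their numbers, with 0 other coding genes between them. They are related copies, so the values of single beta genes are uncertain where a probe set also picks up a similar copy; the probe sequences were not used here and this was not tested.

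Pcdhb14 measured 6.48 and 6.89 in vehicle cortex, 6.72 and 7.27 in clothianidin cortex, 7.74 and 7.87 in vehicle hippocampus, and 7.83 and 7.87 in clothianidin hippocampus. The hippocampus arrays were all higher, by 0.99 (SE 0.20, 1.98-fold, limma adjusted p = 0.00337), and they lay within 0.13 of each other. Pcdhb13 measured 5.35 and 5.43 in vehicle cortex, 4.36 and 4.71 in clothianidin cortex, 5.65 and 5.77 in vehicle hippocampus, and 6.37 and 5.88 in clothianidin hippocampus. Its difference was 0.96 (SE 0.21, 1.94-fold, limma adjusted p = 0.00495), and the gap between tissues was wider in the clothianidin arm than in the vehicle arm.

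Pcdhb11 measured 5.66 and 5.24 in vehicle cortex, 5.39 and 5.84 in clothianidin cortex, 6.03 and 6.02 in vehicle hippocampus, and 6.11 and 6.59 in clothianidin hippocampus. Its difference of 0.66 (SE 0.22, limma adjusted p = 0.0394) was not called under 10 of 16 alternatives, whose adjusted p ranged up to 0.188; leaving out any of 6 single arrays ended the call, the exceptions being clothianidin cortex array 6 and clothianidin hippocampus array 3. The lowest difference among the beta genes was that of Pcdhb18, at -0.49, which did not pass; it was -0.82 without the arrays high in Ttr, -0.28 without clothianidin cortex array 6 and -0.26 without vehicle hippocampus array 6. The other 11 called members kept their call in all 16 alternatives. Subtracting each array's median shifted all differences between tissues by -0.15, and the share of higher among all calls went from 62.2% to 44.5%; of the 29 members Pcdhb19 alone turned sign, from 0.09 to -0.06.

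**Figure D3:**
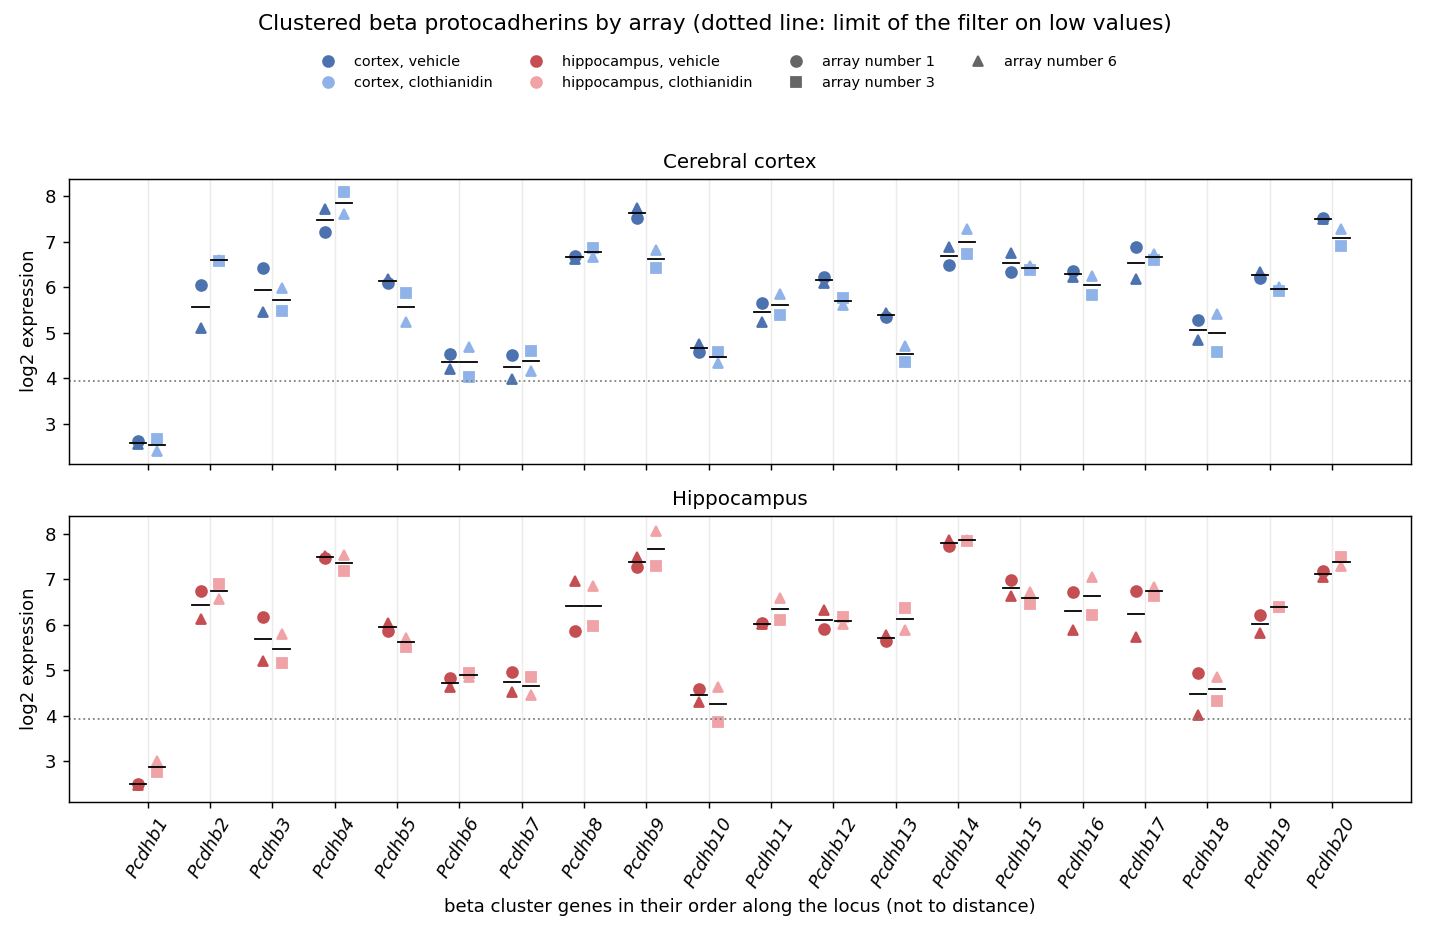
Log2 expression of the 20 beta protocadherins on each array, cortex above and hippocampus below, in their order along the locus; bars are group means of 2 arrays and the dotted line is the limit of the filter on low values. Pcdhb1 lies under that line on all 8 arrays, and Pcdhb9 and Pcdhb13 have their clothianidin cortex arrays (6.42 and 6.82, 4.36 and 4.71) below their vehicle cortex arrays.

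Taken in the vehicle arm alone (2 arrays against 2), 10 of 29 members differed between the tissues, 6 higher and 4 lower in hippocampus, where 17.7% of all probe sets were called, 10.1% higher and 7.63% lower. They were Pcdh20, Pcdh19, Pcdh8, Pcdh17, Pcdhb14 and Pcdh1 on the higher side and Pcdh11x, Pcdh7, Pcdh10 and Pcdh9 on the lower side. Differences in this arm were 4.32 for Pcdh20, 2.63 for Pcdh19, 2.31 for Pcdh8, -2.81 for Pcdh11x, -2.61 for Pcdh7 and -1.91 for Pcdh10, and these 6 were called under all 16 alternatives. The calls of Pcdh1, Pcdh9, Pcdh17 and Pcdhb14 were not: leaving out vehicle cortex array 1 or vehicle hippocampus array 6 left 6 members called, and leaving out both arrays high in Ttr left 7. With equal array medians the share of higher among all calls in this arm was 41% in place of 56.9%.

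In the clothianidin arm 10 of 29 members were called as well, 7 higher and 3 lower in hippocampus, where 14.5% of all probe sets were called, 9.25% higher and 5.22% lower. Pcdh20, Pcdh19, Pcdh8, Pcdh17 and Pcdh1 were again higher, at 4.21, 2.51, 2.06, 1.23 and 0.74, and Pcdh7, Pcdh11x and Pcdh10 were again lower, at -2.73, -1.62 and -1.35. Pcdhb13 (1.59, limma adjusted p = 0.00401) and Pcdhb9 (1.04, limma adjusted p = 0.0448) were called in this arm and not in the vehicle arm, where Pcdhb13 differed by 0.32 and Pcdhb9 by -0.25. The call of Pcdh1 was lost under 8 of 16 alternatives (adjusted p up to 0.158), among them leaving out either vehicle or either clothianidin cortex array or clothianidin hippocampus array 6. The call of Pcdh17 was lost under 4 of 16, among them leaving out clothianidin cortex array 3 (0.93) or clothianidin hippocampus array 6 (0.80, adjusted p = 0.241). The call of Pcdhb9 was lost under 9 of 16 alternatives, among them leaving out either clothianidin cortex array, clothianidin hippocampus array 6 (0.66) or either vehicle cortex array. Leaving out clothianidin cortex array 3 or clothianidin hippocampus array 6 left 7 members called. With equal array medians the share of higher among all calls was 49.1% in place of 63.9%. Whether tissue differences themselves depended on treatment is given with the exposure results, since the test is the same.

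Genes tied to protocadherins by function were compared between the tissues from 3 lists. Of 25 regulators of the clustered loci, 22 were tested and 5 differed over both arms, against 31.3% of all probe sets. Setdb1, a histone methyltransferase that acts on the clustered locus, was higher in hippocampus by 0.96, Cbx5 (heterochromatin protein HP1 alpha) by 0.81, the cohesin regulator Pds5b by 0.75 and the cohesin loader Nipbl by 0.62. Dnmt1, the maintenance DNA methyltransferase, was lower in hippocampus (difference -1.34, SE 0.23, limma adjusted p = 0.00103). Ctcf itself was among the regulators that did not pass.

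Of 30 intracellular partners and processing enzymes, 25 were tested, of which 7 were higher and 3 lower in hippocampus, where 19.5% and 11.9% of all probe sets were. The kinase Ptk2b (Pyk2), which clustered protocadherins of the alpha and gamma groups (not analysed here) inhibit, was higher by 1.80 (SE 0.21, limma adjusted p = 5.16e-05). The WAVE complex members Abi1 and Nckap1, the complex to which Pcdh10 and Pcdh17 link, were higher by 1.26 and 1.23, and Dab1 by 0.77. Pip5k1c and the WAVE complex member Cyfip2 were lower, at -1.16 and -0.47, so members of the WAVE complex went both ways. The catalytic subunits of protein phosphatase 1 also went both ways: Ppp1ca was lower (-0.59, limma adjusted p = 0.0362), Ppp1cc was higher (0.47, adjusted p = 0.0307), and Ppp1cb, at 0.22, did not pass.

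Of 46 other genes of the cadherin superfamily, 33 were tested, of which 8 were higher and 10 lower in hippocampus, where 19.5% and 11.9% of all probe sets were. Cdh9, an adhesion molecule of mossy fibre synapses, was higher by 2.67, the giant cadherin Fat4 by 2.20, Cdh8 by 1.23 and Cdh3 by 1.00. Cdh3 averaged 3.39 in vehicle cortex and 3.7 in clothianidin cortex, both under the limit of the filter on low values. It averaged 4.835 in vehicle hippocampus and 4.265 in clothianidin hippocampus, so its difference is uncertain. Vehicle hippocampus, its highest group, includes an array high in Ttr. Cdh6, Cdh18, the calsyntenin Clstn1 and Cdh7 were lower, at -2.41, -1.73, -1.63 and -1.62. The median over the list was 0.10, beside 0.11 over all probe sets tested and 0.18 over the protocadherins.

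Clothianidin exposure called no member in cortex: 0 of 29 had a limma adjusted p under 0.05, where 0.00675% of all probe sets (1 of 14804) were called. At an unadjusted p under 0.05, 3 members passed, 1 higher and 2 lower, where 6.18% of all probe sets passed. The arrays of the treatments did not overlap for 2 members higher and 8 lower with clothianidin, of which 1 and 6 were beta genes, where 17.1% and 21.4% of all probe sets did not overlap in those directions. The median difference of the members was -0.07, beside -0.025 over all probe sets. Simulated 2-fold changes were recovered in 0% of 200 genes in this comparison and 4-fold changes in 70.5%.

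The largest cortical differences were in the beta group. Pcdhb9 measured 7.51 and 7.74 with vehicle and 6.42 and 6.82 with clothianidin, a difference of -1.01 (SE 0.31, 95% interval -1.69 to -0.32, limma unadjusted p = 0.00774, adjusted p = 0.74). Pcdhb13 measured 5.35 and 5.43 against 4.36 and 4.71, a difference of -0.86 (SE 0.30, unadjusted p = 0.0141). In both genes each clothianidin array lay below each vehicle array, and the 2 genes are not neighbours in the locus. Over the alternatives the differences ranged from -1.205 to -0.805 for Pcdhb9 and from -1.03 to -0.68 for Pcdhb13.

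Pcdhb2 went the other way, at 6.05 and 5.09 with vehicle and 6.58 and 6.60 with clothianidin (difference 1.02, SE 0.36, unadjusted p = 0.0142, adjusted p = 0.74). The vehicle arrays of Pcdhb2 were 0.96 apart, the widest gap of any tested member in that group, while its clothianidin arrays were 0.02 apart. Without vehicle cortex array 1 or without array 6 its difference became 1.5 or 0.54, the range over all alternatives.

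Pcdhb5 (6.10 and 6.18 against 5.88 and 5.23), Pcdhb12 (6.23 and 6.08 against 5.76 and 5.61) and Pcdhb20 (7.51 and 7.49 against 6.90 and 7.27) also had no overlap and lower values with clothianidin, with differences of -0.59, -0.47 and -0.42. The Pcdhb5 difference was -0.26 without clothianidin cortex array 6 and -0.91 without array 3, and that of Pcdhb20 was -0.23 without array 3. Among the non-clustered genes Pcdh7 had no overlap and higher values (13.14 and 13.13 against 13.20 and 13.90, difference 0.41, SE 0.26, limma adjusted p = 0.821). That difference was 0.07 without clothianidin cortex array 6 and 0.77 without array 3. Pcdh20, Pcdh1 and Pcdh10, with large or precise tissue differences, differed by 0.07, -0.03 and -0.12 between the treatments in cortex, and the 95% interval for Pcdh1 was -0.46 to 0.41.

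In hippocampus 0 of 29 members were called as well, where 0.00675% of all probe sets were called. At an unadjusted p under 0.05 a single member passed, Pcdh11x, where 5.81% of all probe sets passed. Arrays did not overlap for 9 members higher and 3 lower with clothianidin, 5 and 1 of them beta genes, where 16.7% and 14% of all probe sets did not overlap. The median of the members was 0.12, beside 0.005 over all probe sets, and without clothianidin hippocampus array 6 it was -0.06.

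Pcdh11x measured 5.81 and 5.25 with vehicle and 6.62 and 6.31 with clothianidin, a difference of 0.94 (SE 0.29, 95% interval 0.29 to 1.58, limma unadjusted p = 0.008, adjusted p = 0.769). Over the alternatives the Pcdh11x difference ranged from 0.655 to 1.215. Pcdh10 measured 9.65 and 10.01 against 10.30 and 10.22, a difference of 0.43 (SE 0.24, adjusted p = 0.899), and Pcdh9 measured 8.94 and 9.11 against 9.24 and 10.02, a difference of 0.60 (SE 0.35, adjusted p = 0.901). The Pcdh10 difference was 0.25 without vehicle hippocampus array 1, and the Pcdh9 difference was 0.21 without clothianidin hippocampus array 6 and 0.99 without array 3. These are the genes that were higher in cortex, and Pcdh7, the fourth such gene, had arrays of 10.69 and 10.37 against 10.79 and 10.86, a difference of 0.29. The 14 cortical neuron markers on the array also had higher values: their mean log2 level was 9.15 and 9.10 on the vehicle hippocampus arrays, 9.80 and 9.54 on the clothianidin hippocampus arrays and 10.62 to 11.04 on the cortex arrays, with 12 of 15 probe sets higher with clothianidin and 1 called. Their part in the values of these 4 genes was not tested.

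Pcdh8 had lower values with clothianidin in hippocampus, 9.56 and 9.83 against 9.99 and 10.32, without overlap (difference -0.46, SE 0.27, limma adjusted p = 0.902; -0.30 without vehicle hippocampus array 6). Pcdh18 and Pcdhb5 also had no overlap and lower values, with differences of -0.32 and -0.34, but the Pcdh18 difference was -0.06 without clothianidin hippocampus array 6 and -0.58 without array 3. Among the beta genes with higher values and no overlap were Pcdhb13 (5.65 and 5.77 against 6.37 and 5.88, difference 0.41) and Pcdhb19 (6.21 and 5.82 against 6.39 and 6.39, difference 0.38). The Pcdhb13 difference was 0.17 without clothianidin hippocampus array 3 and 0.66 without array 6, and that of Pcdhb19 was 0.18 without vehicle hippocampus array 6 and 0.57 without array 1. The highest beta difference, 0.49 in Pcdhb17, had overlapping arrays and became -0.02 without vehicle hippocampus array 6 and 1.01 without array 1.

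**Figure D4:**
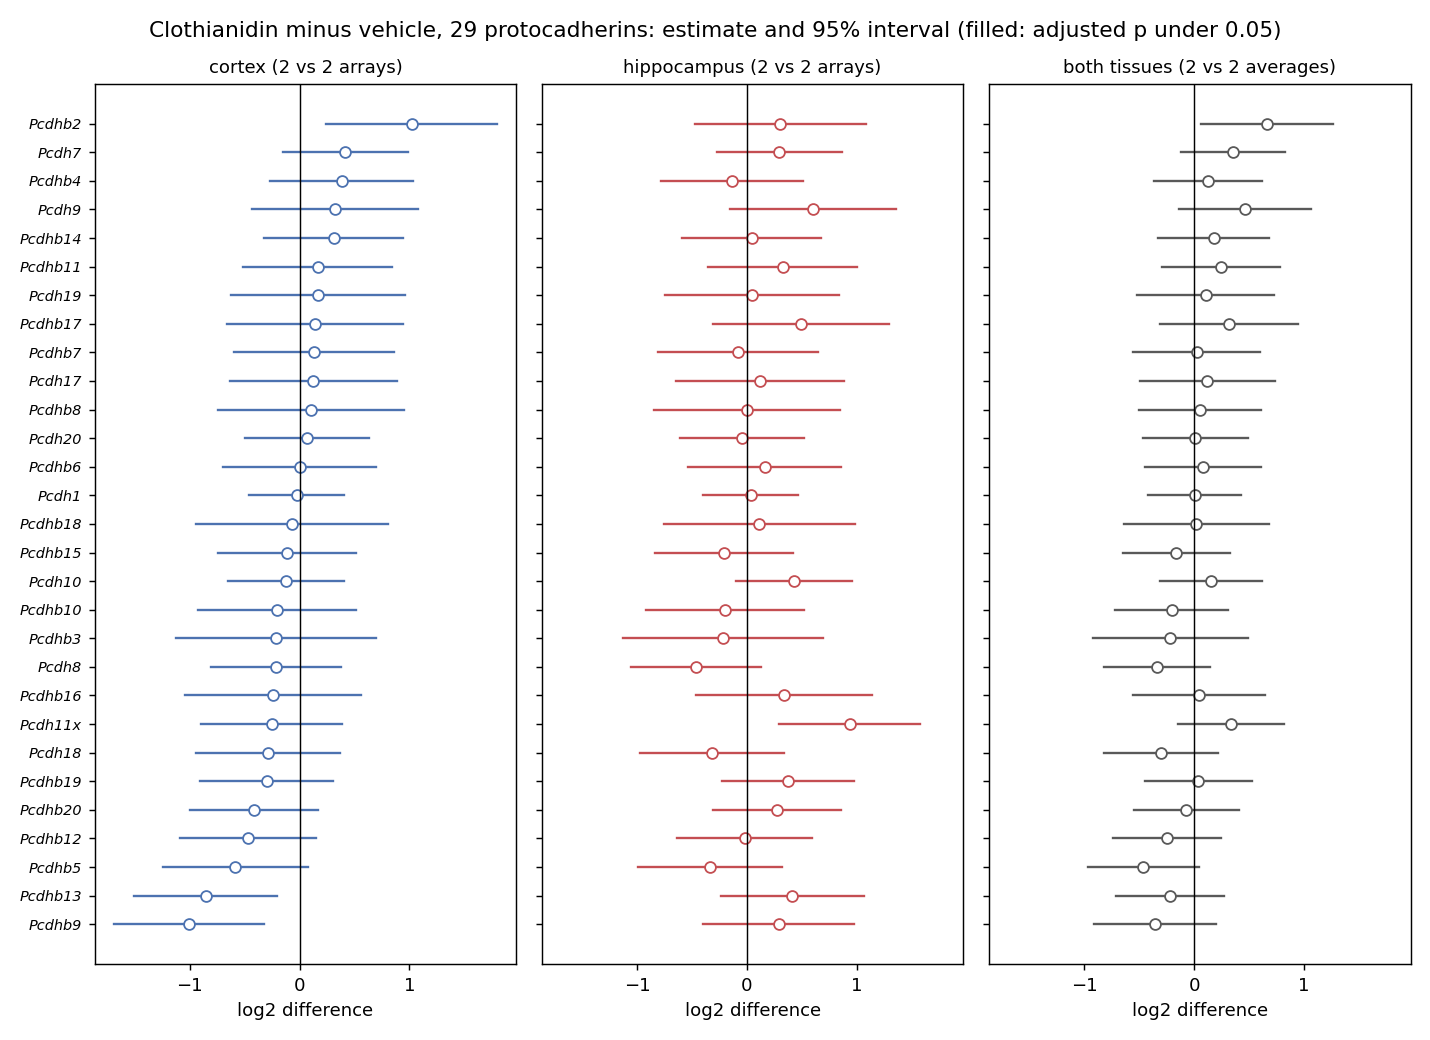
Log2 difference, clothianidin minus vehicle, of the 29 tested protocadherins in cortex, in hippocampus and over both tissues, with 95% intervals from limma, ordered by the cortical difference; no point is filled, since no adjusted p was under 0.05. Pcdhb2, Pcdhb13 and Pcdhb9 in cortex, Pcdh11x in hippocampus and Pcdhb2 over both tissues have intervals that leave out 0.

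The exposure difference was then compared between hippocampus and cortex, and 0 of 29 members were called, where 0% of all probe sets were called. At an unadjusted p under 0.05, 3 members passed, where 3.45% of all probe sets passed: Pcdhb13 (difference of differences 1.27, SE 0.42, 95% interval 0.35 to 2.19), Pcdhb9 (1.29, SE 0.44, 0.33 to 2.26) and Pcdh11x (1.19, SE 0.42, 0.28 to 2.10), each with a limma adjusted p of 0.998. In each of the 3 the cortical difference was negative and the hippocampal one positive. Pcdhb2 (-0.71), Pcdhb4 (-0.52) and Pcdhb14 (-0.27) were lowest on this measure. These values were not stable: Pcdhb2 was 0.065 without the arrays high in Ttr and -1.20 without vehicle cortex array 1, Pcdhb14 was 0.01 without clothianidin cortex array 6, and Pcdhb4 ranged from -0.80 to -0.27 over the alternatives. The larger tissue differences of Pcdhb13 and Pcdhb9 in the clothianidin arm, and the smaller one of Pcdh11x there, are the same contrast and were not called as differing between arms. In simulation 23.5% of 4-fold changes in this contrast were recovered.

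With the cortex and hippocampus arrays of the same arm and number averaged, giving 2 values per arm, 0 of 29 members were called, where 0.00675% of all probe sets were called. At an unadjusted p under 0.05 Pcdhb2 passed (difference 0.66, SE 0.28, limma adjusted p = 0.826), where 5.97% of all probe sets passed; its difference was 0.27 without the number 6 vehicle arrays and 1.05 without the number 1 vehicle arrays. Counting only genes whose arrays did not overlap in either tissue, in the same direction, Pcdh7 was higher with clothianidin (0.36) and Pcdhb5 (-0.46) and Pcdh18 (-0.30) were lower, where 4.17% of all probe sets met this in each direction. Without the number 6 clothianidin arrays Pcdh7 differed by 0.16 and Pcdh18 by -0.17. The averages share their arrays with the comparisons within each tissue.

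None of the related genes was called for exposure either. Among the regulators, the cohesin subunit Stag1 differed most clearly in cortex, at 0.80 (SE 0.31, limma unadjusted p = 0.0258, adjusted p = 0.784), followed by Stag2 at 0.40, and in hippocampus the histone methyltransferase Ehmt1 differed by 0.61 (unadjusted p = 0.039) and Dnmt1 by 0.59. Among the partners, Taok2, the kinase downstream of Pcdh8, differed by -0.64 (unadjusted p = 0.0434) and Axin1 by 0.62 in cortex, and Pip5k1c by 0.60 and Nlgn2 by 0.71 in hippocampus. Among the other cadherins, Cdh26 (1.10) and Cdh12 (-0.68) in cortex and Dsc1 (-1.06) and Cdh6 (0.96) in hippocampus had the smallest p-values. Cdh26 averaged 3.525 in vehicle cortex and 4.63 in clothianidin cortex. Dsc1 averaged 4.89 in vehicle hippocampus and 3.825 in clothianidin hippocampus. The lower mean of each gene lay under the limit of the filter on low values, so the Cdh26 and Dsc1 differences are uncertain. Both genes are in the counts of cadherins that follow. In these lists 1 of 22 regulators, 1 of 25 partners and 2 of 33 cadherins passed an unadjusted p under 0.05 in cortex, where 6.18% of all probe sets did. In hippocampus 1 of 22 regulators, 2 of 25 partners and 4 of 33 cadherins did, where 5.81% of all probe sets did.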

How the data were processed

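The authors deposited 1 table of log2 expression values per probe set for 8 arrays. RMA is named in the submitters' processing notes, with no version. No genome build is given in the sources used here. The deposited log2 values ran from 1.59 to 19.93. RNA was accepted at an integrity number above 7, per the labels' protocols. The number of arrays limits the precision.

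Gene symbols came from the platform annotation, updated through Entrez identifiers (19572 probe sets had 1 symbol, 2634 had none). The lowest 33.3% of probe sets by mean over all arrays were left out. Differences, standard errors and 95% intervals came from limma 3.58.1 in R 4.3.3: 1 mean per group over all 8 arrays, contrasts, and moderated statistics with a mean-variance trend, two-sided. P-values were adjusted by Benjamini-Hochberg over 14804 probe sets. A member is called at an adjusted p under 0.05. Exposure over both tissues was fitted on 4 averages of cortex and hippocampus. The fit was tested on simulated data. Promoter windows came from RefSeq, build GRCm38.p6.

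The members and gene lists were chosen with earlier results of these data known. Genes were named by rule: called members whose arrays do not overlap (up to 8 per direction), members without overlap and with the smallest p for exposure (up to 5 per direction), 3 per direction for the difference between tissues, every non-clustered gene, the extremes of the beta group, and in the other lists up to 4 called per direction or the 2 with the smallest p. Ctcf, Ppp1cb and Ppp1cc fall outside the rule and were named after their values were seen. Other filters, quantile and median scaling, no trend, array weights, blocks by array number, and leaving out arrays were tried as alternatives.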

Additional observations from a re-analysis of the deposited data

How the results depend on the processing

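In the comparison of tissues over both arms, 11 or 12 members were called under all 16 alternatives, and no alternative called a member in an exposure comparison. For the 61 pairs of gene and comparison named by rule, 915 values under alternatives kept their direction and side of the threshold. Another 50 lost their call, and 3 turned sign without being called. Pcdhb14 in the difference between tissues was 0.01 without clothianidin cortex replicate 6, and -0.54 at the other end of its range over left-out arrays. Pcdhb17 in hippocampus was -0.02 without vehicle hippocampus replicate 6 and 1.01 without replicate 1. Pcdhb2 in the difference between tissues was 0.065 without the arrays high in Ttr. These pairs do not cover every value of the 29 tested members. For example, quantile or median scaling turned the sign of 2 tissue differences in the vehicle arm and 4 in the clothianidin arm. The median over members moved with the scaling. Between the tissues it was -0.17 after quantile normalization and -0.20 with equal array medians in the vehicle arm (-0.04 as deposited), 0.10 and 0.14 in the clothianidin arm (0.28), and 0.0417 and 0.03 over both arms (0.18). Without the arrays high in Ttr it was 0.0625 over both arms, and 0.265 for the difference of exposure between tissues (0.06 with them). For exposure over both tissues, the cortex and hippocampus arrays of a number were left out together. The medians were then -0.112 to 0.0975 (-0.055 without vehicle replicate 6). Leaving out each array in turn gave medians of -0.16 to 0.005 for exposure in cortex and -0.055 to 0.185 in hippocampus. It gave -0.08 to 0.38 for their difference and -0.12 to 0.22 for tissue in the vehicle arm. It gave 6 to 10 called members in the vehicle arm, 7 to 10 in the clothianidin arm and 11 to 12 over both. The fit over both tissues could not be made without the arrays high in Ttr.

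Same-numbered arrays of the 2 tissues deviated with a correlation of -0.0009 in the vehicle arm and 0.28 in the clothianidin arm. In the vehicle arm the arrays high in Ttr carry unlike numbers. The random block put the correlation of same-numbered arrays at 0.19. A fixed block by number called 5502 of all probe sets over both arms, against 4641 without it. The main tests between tissues do not pair arrays by number, and the averages over both tissues do join same-numbered arrays. With the number as a replicate block, 10 members were called in the vehicle arm, 11 in the clothianidin arm (Pcdh9 added) and 12 over both; 0 were called in the difference of exposure, and 0 in each tissue for exposure with a random block. With 2 arrays per group, simulated 2-fold changes were recovered in 32.5% of genes for tissue over both arms. Recovery was 0% for each other comparison. Each simulation changed 200 of 14804 probe sets, whereas 2620 and 2143 were called for tissue in the vehicle and clothianidin arms. Adjusted p-values depend on how many probe sets differ, so the simulated recovery does not carry over to the tissue comparisons. Pcdh1, for example, was called in the vehicle arm at a log2 difference of 0.675.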

Other observations

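Several members differed between array numbers in the same way in both tissues; these genes were singled out after their values were seen. Pcdhb3 was 6.41 and 6.17 on the number 1 vehicle arrays of cortex and hippocampus against 5.46 and 5.21 on the number 6 arrays, and 5.47 and 5.16 on the number 3 clothianidin arrays against 5.97 and 5.79 on the number 6 arrays. The spread of Pcdhb3 thus lay between array numbers more than between tissues or treatments. Pcdhb17 (6.88 and 6.75 against 6.17 and 5.72) and Pcdhb2 (6.05 and 6.73 against 5.09 and 6.13) were also higher on the number 1 than on the number 6 vehicle arrays. Pcdh17 was lower on array 1 or 3 than on array 6 in both arms and both tissues, by 0.50 to 0.86.

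Counting members whose 2 arrays differed by at least 0.5 in the same direction in both tissues gave 4 of 29 in the vehicle arm, 3 of them beta genes, where 4.55% of all probe sets met this. It gave 5 of 29 in the clothianidin arm, 2 of them beta genes, where 7.64% did. Pcdh17 (-0.50 in vehicle hippocampus) and Pcdhb3 (-0.50 in clothianidin cortex) were counted at the limit itself. The counts use the values from which the genes above were singled out, so they are not separate support. Whether arrays of the same number come from the same mouse is not given in the sources used here, so a difference between animals cannot be told apart from other differences between arrays of unlike number.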
